A study of Mus musculus with 23 samples.

Results

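The choroid plexus epithelial genes described here are Ttr, Enpp2, Kl, Folr1, Clic6, Kcnj13, Car14, Atp1b1, Aqp1 and Otx2, which are 10 of the 18876 genes in the table of counts. They were chosen by gene symbol, and all 10 were found and passed the filter on low counts. RNA of CD11b-positive cells, isolated with magnetic beads from the hippocampi of female mice, was sequenced in bulk in 23 samples. All mice carried Slc11a2 fl/fl and Cx3cr1 Cre-ERT2, and were either hemizygous for the APP/PS1 transgenes or WT littermates on a mixed 129S and C57BL/6J background. Mice labelled KD had received tamoxifen by gavage (4 mg per day for 5 days) at 5 to 6 months of age and mice labelled Control had received corn oil, so that tamoxifen and knockdown of Slc11a2 cannot be told apart. Mice were euthanised at 15 to 18 months. Of the Control mice 6 were WT and 7 APP/PS1, and of the KD mice 5 had each genotype, with 31128643 to 54872491 counts per sample. The study left out 1 Control APP/PS1 sample as an outlier, and 0010 is the one of the 7 that its heat map of samples does not show. It was not tested here, and comparisons are over the other 6, but its levels are given. The Cre is driven by the Cx3cr1 locus, so recombination is directed to microglia and other macrophages, not to epithelium. The 4-digit numbers are the library numbers of the labels: Control samples carried 5 to 17, and KD samples carried 1 to 4 and 18 to 23. The labels do not say what these runs of numbers stand for, and KD against Control cannot be told apart from library number.

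The choroid plexus hangs in the brain ventricles, next to the hippocampus in the lateral ventricles, and its epithelium secretes cerebrospinal fluid. The epithelial cells are joined by tight junctions and move ions, water, vitamins and hormones between blood and fluid. They are not CD11b-positive cells, and the sort was made for microglia. Their best known product is transthyretin (Ttr), a carrier of thyroxine and of the retinol-binding protein. Enpp2 encodes autotaxin, a secreted enzyme that makes lysophosphatidic acid. Kl encodes klotho, a co-receptor of fibroblast growth factor 23, and Folr1 encodes folate receptor alpha, which carries folate into the fluid. The transport genes are Clic6 (a chloride intracellular channel protein), Kcnj13 (an inward-rectifier potassium channel), Car14 (a membrane-bound carbonic anhydrase), Atp1b1 (the beta 1 subunit of the sodium-potassium pump) and Aqp1 (a water channel). Otx2 encodes a homeodomain transcription factor that choroid plexus epithelium needs to form and to last.

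All 10 genes are annotated as protein coding in the mouse genome (GRCm39, GENCODE M39). Enpp2 lies on the minus strand at chr15:54701324-54816288, Kl on the plus strand at chr5:150876072-150917284, and Folr1 on the minus strand at chr7:101507537-101520014. Kcnj13 and Atp1b1 share chromosome 1, at chr1:87309135-87322456 and chr1:164264678-164285957, both on the minus strand. Clic6 lies at chr16:92282624-92338739 on the plus strand, Car14 at chr3:95805079-95812646 on the minus strand, Aqp1 at chr6:55313068-55325540 on the plus strand, and Otx2 at chr14:48894099-48911276 on the minus strand. The counts are over whole genes, so exons, introns and untranslated regions within a gene were not separated.

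The promoters were read because the genes are counted in the same samples. In the 300 bases from 250 before to 50 after the start of the canonical transcript, the letters TAATCC, the core to which Otx2 and related homeodomain proteins bind, were searched on both strands. They were in 0 of the 10 windows and in 7.72% of 21770 protein-coding windows of the same length. CCAAT was in 6 of the 10 windows and in 39.9% of all, GGGCGG in 5 and in 42.5% of all, and TATAAA in 1 (Kcnj13) and in 13.2% of all. No match overlaps another in the stretches shown. These are matches of letters and not sites, and the missing TAATCC says only that the letters are not in these windows. The 100 bases just before the start are shown for the pair of genes whose log2 ratio had the smallest standard deviation between samples (Enpp2 and Kl) and for the pair whose log2 ratio had the largest standard deviation (Folr1 and Kcnj13, through Slc11a2 KD WT 0001), each 5′ to 3′ on the strand of its gene, with matches to any of these motifs on either strand in capitals. They were taken from GRCm39 at chr15:54784107-54784206, chr5:150875972-150876071, chr7:101520015-101520114 and chr1:87322457-87322556.
Enpp2: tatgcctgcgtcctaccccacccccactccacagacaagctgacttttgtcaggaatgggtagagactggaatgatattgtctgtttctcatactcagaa
Kl: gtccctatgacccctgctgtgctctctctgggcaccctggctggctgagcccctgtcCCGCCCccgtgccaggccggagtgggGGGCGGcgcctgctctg
Folr1: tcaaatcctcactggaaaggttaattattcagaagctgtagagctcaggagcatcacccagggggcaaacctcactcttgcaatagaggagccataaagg
Kcnj13: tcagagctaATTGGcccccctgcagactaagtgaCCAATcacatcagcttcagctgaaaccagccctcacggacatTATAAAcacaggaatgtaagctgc
Kl holds 2 matches, both of GGGCGG, Kcnj13 holds 3 (CCAAT on either strand and TATAAA), and Enpp2 and Folr1 hold 0 in these stretches.

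The samples were those of a microglial sort by their defining markers: the summed level of the microglial list was between 28732 and 43314 CPM (counts relative to the library's total as counts per megaread, scaled by TMM over all 23 samples), with 0 of its genes at 0 counts in any sample. Total counts of the targeted gene, Slc11a2, did not separate KD from Control, with a log2 fold change of -0.04 for KD against Control in WT (standard error 0.14) and of 0.39 in APP/PS1 (standard error 0.14, adjusted p = 0.205, edgeR). In Slc11a2 KD APP/PS1 against Slc11a2 KD WT it was higher (0.72, standard error 0.15, adjusted p = 0.00209, edgeR). It did not pass in Control APP/PS1 against Control WT (0.30, adjusted p = 0.175), the interaction (0.42, adjusted p = 0.544) or KD libraries 18 to 23 against 1 to 4 (0.43, adjusted p = 0.0921, edgeR). Counts over the whole gene include the exons that are not deleted, so they check nothing about the knockdown, which the study measured over the deleted exons (not analysed here), and every direction below follows the labels.

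Samples were taken to carry the genes where Ttr reached at least 10 CPM, which was so in 9 of the 23: Control WT 0012 and 0015, Slc11a2 KD WT 0001, 0019 and 0022, and Slc11a2 KD APP/PS1 0018, 0020, 0021 and 0023. Between them Ttr ran from 29.2 to 987 CPM, a 33.8-fold range. The next sample, Control APP/PS1 0010, had 5.79 CPM, the one after it 1.07 CPM, and 7 of the 14 samples under 10 CPM had 0 counts. No Control APP/PS1 sample was among the 9. A count of 0 allows up to 3 counts, which is 0.0529 to 0.0956 CPM by sample, for counting error only. In bulk samples fewer cells of a type and less RNA per cell cannot be told apart, and the number of epithelial cells in a sample was not measured.

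The other members were in the same samples. Each of the 10 genes had at least 1 count in 7 of the 9 samples, 9 of 10 did in Slc11a2 KD APP/PS1 0021 (all but Clic6) and 8 of 10 in Slc11a2 KD WT 0001 (all but Aqp1 and Otx2). The 10 genes together made up 0.213% of all counts in Control WT 0012, 0.107% in Control WT 0015, 0.082% in Slc11a2 KD WT 0019 and 0.00558% in Slc11a2 KD WT 0001, the lowest of the 9. In the 14 other samples they made up 0.000206% to 0.00164%. Ttr alone was 50.6% to 77.6% of the counts of the 10 genes in the 9 samples.

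**Figure D1:**
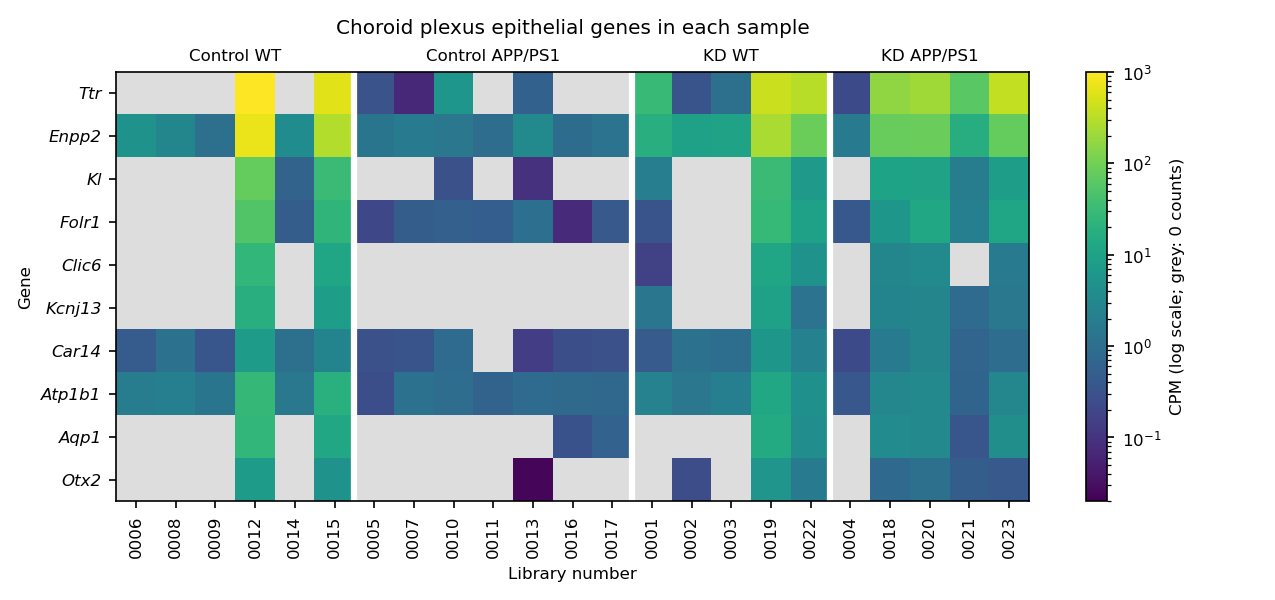
Level of each choroid plexus epithelial gene (rows) in each of the 23 samples (columns, by group and library number), as CPM on a log colour scale with grey for 0 counts. Columns 0012, 0015, 0019, 0022, 0018, 0020 and 0023 are filled for all 10 genes, and Clic6 and Kcnj13 are grey in every sample with under 10 CPM of Ttr.

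Outside the 9 samples some of the genes had 0 counts nearly throughout and others did not. Clic6 and Kcnj13 had 0 counts in all 14 samples under 10 CPM of Ttr. Aqp1 and Otx2 had 0 counts in 12 of the 14, and Kl in 11 of the 14. The exceptions were low: Aqp1 had 0.302 and 0.601 CPM in Control APP/PS1 0016 and 0017, where Ttr had 0 counts, Otx2 had 0.261 CPM in Slc11a2 KD WT 0002 and 1 count in Control APP/PS1 0013, and Kl had at most 0.617 CPM, in Control WT 0014. Enpp2 and Atp1b1 had counts in all 14 samples, Car14 in 13 and Folr1 in 9. Levels of Car14, Atp1b1 and Folr1 there overlapped those in the 9 samples, and in 11 of the 14 samples Atp1b1 was above its lowest level in the 9 (0.661 CPM, Slc11a2 KD APP/PS1 0021).

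Enpp2, which oligodendrocytes also express, was between 0.907 and 10.0 CPM in the 14 samples. Its highest levels there were 10.0 CPM in Slc11a2 KD WT 0003 and 9.95 CPM in Slc11a2 KD WT 0002, where Ttr was at 1.07 and 0.332 CPM. The summed level of 7 oligodendrocyte genes was 2112 and 1425 CPM in these samples, and 362 and 537 CPM in the samples with the lowest Enpp2, Control APP/PS1 0016 (0.907 CPM) and 0011 (0.956 CPM). The part of oligodendrocyte RNA in the level of Enpp2 was not tested. In the 9 samples Enpp2 was at least 16.8 CPM, above every one of the 14.

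Levels per length were compared within samples, as CPM per kilobase of exon. Ttr ranked first and Enpp2 second of the 10 genes in each of the 9 samples, with median levels of 167 and 9.66 CPM per kb. Folr1 (median 1.75), Aqp1 (1.38) and Kl (1.11 CPM per kb) came next by median, followed by Clic6 (0.797), Car14 (0.709), Atp1b1 (0.663) and Kcnj13 (0.427 CPM per kb). These 7 genes changed places between samples: Atp1b1 ranked between 3 and 8 and Kcnj13 between 4 and 10. Otx2, the transcription factor, had the lowest median (0.200 CPM per kb) and ranked 9 or 10 in each of the 9 samples.

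Ratios to Ttr were taken as counts of the gene over counts of Ttr in the same sample, in which scaling cancels. Enpp2 had a median of 46.9% of the Ttr counts (range 20.6% to 73.2%, n = 9 samples), Kl 5.25% (2.17% to 7.73%) and Folr1 3.66% (1.13% to 6.81%). Atp1b1 had a median of 1.84% (0.799% to 8.16%), Clic6 1.67% (0 to 2.79%), Aqp1 1.48% (0 to 3.56%), Kcnj13 1.35% (0.386% to 4.85%) and Car14 1.03% (0.255% to 1.53%). Otx2 had a median of 0.564% (0 to 1.34%). The ratios varied 3.56-fold for Enpp2 and 3.57-fold for Kl, against the 33.8-fold range of Ttr itself, and 12.6-fold for Kcnj13. Without Slc11a2 KD WT 0001 the range was 6.20-fold for Kcnj13 and 15.5-fold for Ttr, and that of Enpp2 and Kl was the same.

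The 9 ratios of a sample share its Ttr count as their denominator and so are not independent. In Slc11a2 KD WT 0019 all 9 ratios were above the median of their gene, and in Control WT 0012 8 of the 9 were. In Slc11a2 KD APP/PS1 0023 all 9 ratios were below the median, and in Slc11a2 KD WT 0022 8 of the 9 were. The other 5 samples had ratios on both sides. Samples with high and with low ratios were found within Slc11a2 KD WT, in libraries 0019 and 0022, whose Ttr levels were 413 and 318 CPM. In 0019 Enpp2 was 62.0% of Ttr, Kl 7.73% and Kcnj13 2.39%, and in 0022 they were 27.6%, 2.22% and 0.386%. The group means of these ratios were not compared, since the samples were picked by their Ttr.

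Slc11a2 KD WT 0001, the sample with the least Ttr of the 9 (1238 counts), differed from the others gene by gene. Atp1b1 was 8.16% of Ttr and Kcnj13 4.85%, above the highest of the other 8 samples (3.22% and 2.39%). Car14 was also highest there, at 1.53% against at most 1.47%. Folr1 was 1.13%, below the lowest of the other 8 (3.05%), with 14 counts. Aqp1 and Otx2 had 0 counts, which allows up to 0.242% of Ttr, whereas the median ratio would have given 18.3 counts of Aqp1 and 6.98 of Otx2. Enpp2 (60.1%) and Kl (6.87%) were within the range of the other samples. The second gap was Clic6 in Slc11a2 KD APP/PS1 0021, at 0 counts against 41.8 at the median ratio, which allows up to 0.120% of the 2510 counts of Ttr. These limits cover counting error only, because PCR copies of a molecule were counted as reads.

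**Figure D2:**
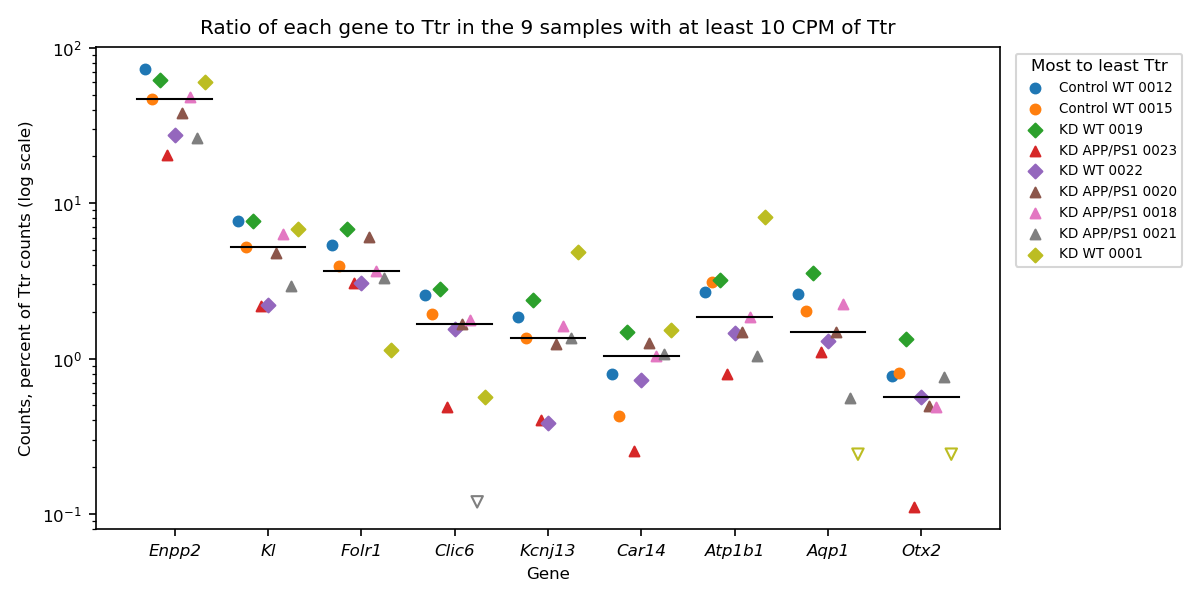
Counts of each gene as a percent of the Ttr counts of the same sample (log scale), for the 9 samples with at least 10 CPM of Ttr, ordered by their Ttr. Horizontal lines are medians over the 9 samples and hollow triangles mark the limit where a gene had 0 counts. Slc11a2 KD WT 0001 stands above the other samples for Kcnj13 and Atp1b1 and below them for Folr1.

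Among the 45 pairs of members, Kl and Enpp2 had the steadiest ratio. Kl was 8.07% to 13.05% of the Enpp2 counts over the 9 samples (median 11.2%), a 1.62-fold range, with a standard deviation of 0.21 on the log2 scale where counting alone would give 0.10. The highest value was in Slc11a2 KD APP/PS1 0018 and the lowest in Slc11a2 KD WT 0022. Slc11a2 KD WT 0001 was at 11.4%, close to the median. The pair with the largest standard deviation (1.5003 on the log2 scale) was Kcnj13 and Folr1, at 12.6% to 429%, a 34.0-fold range. By range, Kcnj13 and Clic6 were as wide (34.3-fold over the 8 samples with counts of both). Both ranges rest on Slc11a2 KD WT 0001, with 60 counts of Kcnj13, 14 of Folr1 and 7 of Clic6. Without this sample the largest range was 13.6-fold, for Otx2 and Aqp1, while Kl and Enpp2 again had the smallest, 1.62-fold, ahead of Atp1b1 and Enpp2 at 1.80-fold.

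**Figure D3:**
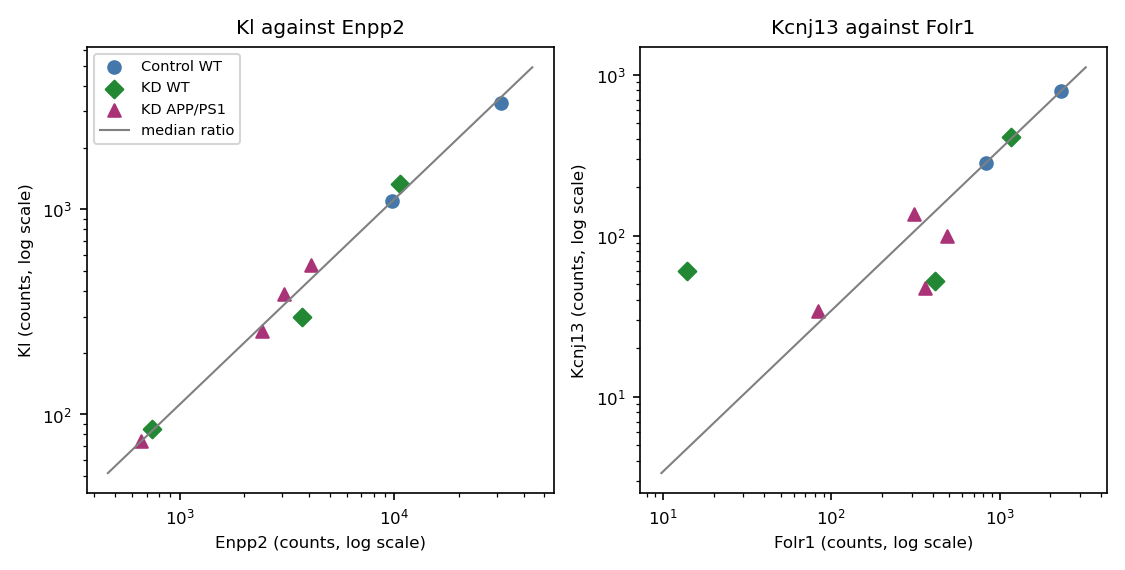
Counts of Kl against Enpp2 (left) and of Kcnj13 against Folr1 (right) in the 9 samples with at least 10 CPM of Ttr, both axes on a log scale, with the median ratio as a line. Kl stays between 8.07% and 13.05% of Enpp2 across all 9 points, and the point far above the line on the right is Slc11a2 KD WT 0001.

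Control APP/PS1 was compared with Control WT to see the difference between genotypes with Slc11a2 intact. All 10 genes had lower means in Control APP/PS1, and 8 fell with an adjusted p under 0.05 by edgeR (all but Folr1 and Aqp1), where 4.48% of the 18759 genes tested fell and 5.99% rose. The median log2 fold change of the 10 genes was -7.51 against -0.02 over all genes tested, also with the genes at 0 counts taken at their bound. The Control WT means rest on 2 of its 6 samples, 0012 and 0015. Without these, 0 of the 10 genes passed (adjusted p 0.215 to 1.0), where 2.68% of all genes fell, an alternative added after the data were seen, and the estimates of Ttr, Folr1, Aqp1 and Otx2 turned positive (5.79, 1.80, 5.70 and 1.17 on the log2 scale). By limma voom with sample weights 1 of the 10, Car14, was called lower, where 7.15% of all genes were. Other fits called more: 9 of 10 by DESeq2 (8.06% of the genes with an adjusted p lower), 9 with Control APP/PS1 0010 kept (4.69%) and 10 with a term for libraries 18 to 23 (6.16%). The term does not vary between these groups, which carry libraries 5 to 17, so it adjusts nothing in this comparison. The log2 difference of Ttr was -10.69 with the term and -10.68 without it, with standard errors of 2.31 and 2.63 (edgeR).

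Among the secreted products, Ttr was 266 ± 429 CPM in Control WT (SD, n = 6) and 0.162 ± 0.240 CPM in Control APP/PS1 (SD, n = 6), with an adjusted p of 0.00891 by edgeR. In 4 Control WT samples it had 0 counts, and in 3 Control APP/PS1 samples it had between 4 and 25 counts, so the groups overlapped. Enpp2 had a lowest, median and highest level of 1.08, 4.54 and 723 CPM in Control WT and of 0.907, 1.29 and 3.62 CPM in Control APP/PS1. The fitted log2 difference was -6.71 with a standard error of 1.49 (adjusted p = 0.00383, edgeR). Outside 0012 and 0015, Control WT reached 5.29 CPM of Enpp2, and the highest Control APP/PS1 sample was 0013.

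Among the receptors, Kl was 0, 0.308 and 76.1 CPM (lowest, median and highest) in Control WT and 0, 0 and 0.0933 CPM in Control APP/PS1, where 5 of 6 samples had 0 counts. The fitted log2 difference was -10.03 with a standard error of 2.43 (adjusted p = 0.00779, edgeR). Folr1 did not pass (log2 fold change -4.83, standard error 1.68, adjusted p = 0.0693, edgeR). It had 0 counts in 3 Control WT samples, with a median of 0.242 and a highest level of 53.4 CPM, but counts in all 6 Control APP/PS1 samples, from 0.0756 to 1.05 CPM. By DESeq2 (adjusted p = 0.0376), and by edgeR with 0010 kept (adjusted p = 0.0462) or with a term for libraries 18 to 23 (adjusted p = 0.0177), Folr1 did pass. That term does not vary between these groups, and the log2 fold change of Folr1 with it was the same (-4.83, standard error 1.37). The order of the medians of Folr1 was therefore opposite to the order of its means.

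Among the transport genes, Clic6 and Kcnj13 had 0 counts in all 6 Control APP/PS1 samples and in 4 of the 6 Control WT samples. In 0012 and 0015 Clic6 was at 25.4 and 11.9 CPM and Kcnj13 at 18.3 and 8.26 CPM. Against 3 counts over the group, the mean of Clic6 was at least 580-fold lower and that of Kcnj13 at least 413-fold lower in Control APP/PS1 (adjusted p = 0.0298 and 0.0221, edgeR). Aqp1 was at 25.7 and 12.4 CPM in 0012 and 0015, at 0 counts in the other 4 Control WT samples and at up to 0.601 CPM in Control APP/PS1, and did not pass (adjusted p = 0.0934, edgeR), but did with the term for libraries 18 to 23 (adjusted p = 0.0371, edgeR). Its log2 difference was -5.38 without and with that term, with standard errors of 2.01 and 1.70. Otx2 was at 7.68 and 4.89 CPM in the same 2 samples and at 0 counts in the other 4, with 1 count in all of Control APP/PS1 (adjusted p = 0.0151, edgeR).

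Car14 and Atp1b1 were the genes of the 10 for which Control APP/PS1 and Control WT did not overlap, and 3.02% of all genes tested were lower in each sample in this way. Car14 was 0.361, 1.12 and 7.91 CPM (lowest, median and highest) in Control WT and 0, 0.277 and 0.335 CPM in Control APP/PS1, with a log2 difference of -3.33 (standard error 0.86) and an adjusted p of 0.0124 by edgeR. Atp1b1 was 1.36, 2.04 and 26.5 CPM in Control WT and 0.275, 0.810 and 1.13 CPM in Control APP/PS1, with a log2 difference of -3.53 (standard error 0.80) and an adjusted p of 0.00462 by edgeR. Both were lower in each of the 6 Control APP/PS1 samples tested than in every Control WT sample, also those with 0 counts of Ttr. For Car14 this holds only without Control APP/PS1 0010, which was at 0.893 CPM, above Control WT 0006 (0.471 CPM) and 0009 (0.361 CPM). Without 0012 and 0015 the log2 difference was -1.77 for Car14 (standard error 0.80 and adjusted p = 0.215, edgeR) and -1.20 for Atp1b1 (standard error 0.61 and adjusted p = 0.280, edgeR). Atp1b1 is widely expressed, by neurons among others, and the summed level of 7 neuronal genes was 16.2 to 39.3 CPM in Control WT and 9.71 to 14.8 CPM in Control APP/PS1. The part of those cells in the level of Atp1b1 was not tested.

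**Figure D4:**
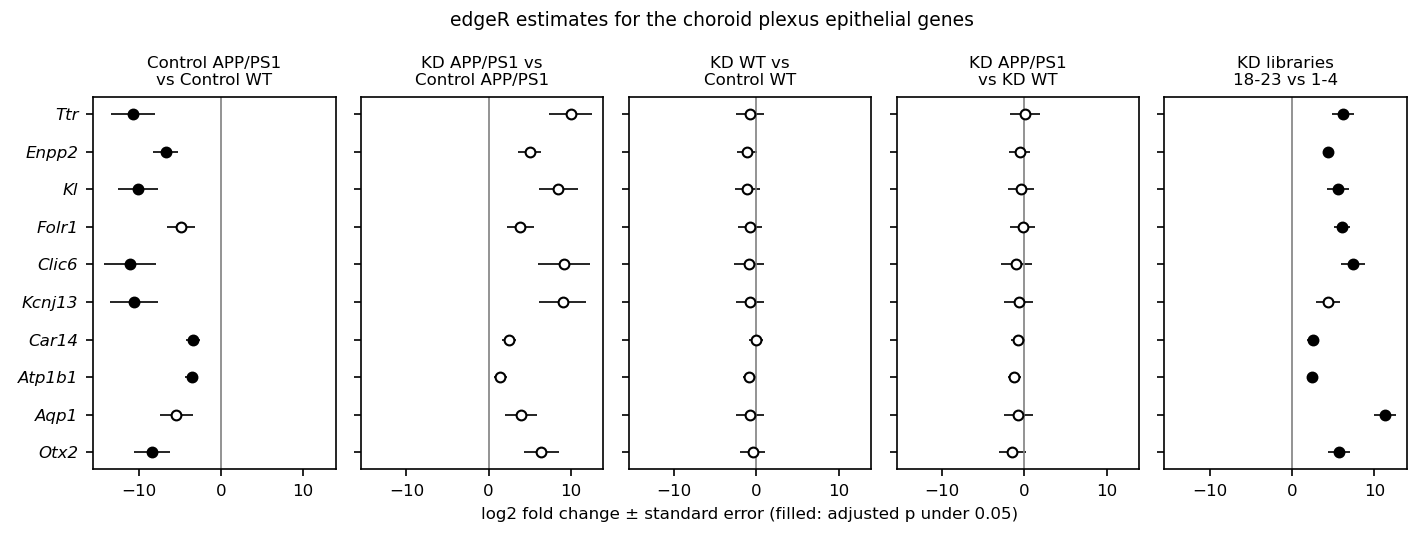
The edgeR log2 fold change of each gene with its standard error in 5 comparisons, filled where the adjusted p was under 0.05. Of the 10 genes, 8 are filled in the first panel (lower in Control APP/PS1), 0 in the next 3 panels, and 9 in the last (higher in KD libraries 18 to 23). The positions of genes at 0 counts in a whole group (Clic6 and Kcnj13 in Control APP/PS1, Aqp1 in KD libraries 1 to 4) depend on the fit and are no bound.

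Slc11a2 KD APP/PS1 was compared with Control APP/PS1 to see the effect of knockdown in the disease model. All 10 genes had higher means with KD, but 0 passed by edgeR (adjusted p 0.205 to 0.288), where 0% of all genes tested were called in either direction. At an unadjusted p under 0.05 the count was 8 of 10, where 10.8% of all genes were higher. DESeq2 called Ttr and Enpp2, the 2 of the 10 to which it gave an adjusted p (0.0206), and called 9.81% of the 4575 genes with an adjusted p higher, and limma voom called 0 of the 10. The median log2 fold change of the 10 was 5.70 against 0.01 over all genes tested. The groups overlapped for each gene, through Slc11a2 KD APP/PS1 0004 (library 4) and, for Clic6, Atp1b1 and Aqp1, also through 0021. Without 0004, 7 of the 10 passed (adjusted p 0.0202 to 0.0469, edgeR), where 7.34% of all genes were higher. With a term for libraries 18 to 23, which hold 4 of the 5 Slc11a2 KD APP/PS1 samples, 0 passed (adjusted p 1.0, edgeR) and the median of the 10 was 0.93, with 3 of the 10 estimates below 0. With Control APP/PS1 0010 kept the adjusted p was 0.595 for each of the 10.

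In samples 0004, 0018, 0020, 0021 and 0023 of Slc11a2 KD APP/PS1, Kl was at 0, 10.4, 10.4, 1.88 and 8.13 CPM and Folr1 at 0.393, 6.02, 13.2, 2.11 and 11.5 CPM. Clic6 was at 0, 2.91, 3.62, 0 and 1.82 CPM and Kcnj13 at 0, 2.66, 2.70, 0.864 and 1.498 CPM in the same order. Sample 0004 was lowest, or level with the lowest, for each of these 4 genes. Car14 was at 0.228, 1.70, 2.73, 0.686 and 0.956 CPM, Atp1b1 at 0.372, 3.03, 3.21, 0.661 and 2.996 CPM, Aqp1 at 0, 3.70, 3.21, 0.356 and 4.14 CPM, and Otx2 at 0, 0.802, 1.08, 0.483 and 0.414 CPM. Sample 0021 was the lowest of the other 4 for each member but Otx2. Against 3 counts over Control APP/PS1, the means of Clic6 and Kcnj13 were at least 156-fold and 144-fold higher.

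Slc11a2 KD WT was compared with Control WT for the effect of knockdown without the transgenes. Each of the 10 genes had a lower mean with KD, and 0 passed by edgeR (adjusted p 1.0), where 0% of all genes were called. At an unadjusted p under 0.05 by edgeR the count was 0 of 10, where 1110 of the 18759 genes tested passed. DESeq2 called 0 of the 10 (0.0321% of the genes with an adjusted p higher and 0.0214% lower), and limma voom 0 (0.00533% of all genes higher and 0% lower). Ttr was 152 ± 198 CPM (SD, n = 5) with KD, within the spread of Control WT, and Kl was 8.21 ± 13.6 against 18.1 ± 31.1 CPM. Both groups held samples with high and samples with low levels: in Slc11a2 KD WT 0001, 0002, 0003, 0019 and 0022, Kl was at 2.01, 0, 0, 32.0 and 7.07 CPM and Aqp1 at 0, 0, 0, 14.7 and 4.10 CPM. Library 0019 was the highest of the 5 for each of the 10 genes. The log2 differences were -0.81 for Ttr, -1.16 for Enpp2, -1.14 for Kl, -0.77 for Folr1, -0.90 for Clic6, -0.82 for Kcnj13, -0.05 for Car14, -0.87 for Atp1b1, -0.76 for Aqp1 and -0.46 for Otx2, with standard errors of 0.77 (Atp1b1) to 1.81 (Clic6). With a term for libraries 18 to 23, which hold 2 of the 5 Slc11a2 KD WT samples, their median was -4.85 against -0.81 (adjusted p 0.378 to 0.481, edgeR). Without Control WT 0012 and 0015, an alternative added after the data were seen, the sign of all 10 differences turned. These samples had the highest levels of each of the 10 genes in Control WT, so leaving them out could only raise the differences. In that fit 0 passed (adjusted p 0.602 to 0.868, edgeR), where 0% of all genes were called.

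Slc11a2 KD APP/PS1 was also compared with Slc11a2 KD WT, and 0 of the 10 genes passed by edgeR (adjusted p 0.317 to 0.982), where 9.77% of genes were called higher and 6.41% lower. At an unadjusted p under 0.05 by edgeR the count was 0 of 10, where 5943 of the 18759 genes tested passed. DESeq2 called 0 of the 10 (16.4% of the genes with an adjusted p higher and 13.3% lower), and limma voom 0 (13.2% of all genes higher and 10.4% lower). The estimates ran from -1.45 for Otx2 (standard error 1.63) to 0.11 for Ttr (standard error 1.79) on the log2 scale. Between these were Atp1b1 (-1.22), Clic6 (-0.99), Car14 (-0.80), Aqp1 (-0.72), Kcnj13 (-0.70), Enpp2 (-0.56), Kl (-0.41) and Folr1 (-0.20). With a term for libraries 18 to 23 all 10 were below 0, Ttr too (-1.75, standard error 2.08), with a median of -1.86 against -0.71 (adjusted p 0.118 to 0.905, edgeR). The difference between the genotype effects with and without KD was tested as an interaction. By edgeR 0 genes passed (adjusted p 0.544 to 0.546), where 0% of all genes were called. At an unadjusted p under 0.05 the count was 9 of 10, where 4.86% of all genes were higher. The 9 were Ttr (10.79 on the log2 scale), Clic6 (10.05), Kcnj13 (9.85), Kl (9.61), Otx2 (6.87), Enpp2 (6.15), Folr1 (4.62), Car14 (2.53) and Atp1b1 (2.31), and Aqp1 (4.66) was the gene left. DESeq2 called Clic6 and Kcnj13, both at 0 counts throughout the Control APP/PS1 samples tested, and called 0.0963% of all genes higher, and limma voom called 0 of the 10. By edgeR and limma voom the fall of the 8 genes in Control APP/PS1 is thus not shown to differ from the genotype difference under KD. By DESeq2 a difference was called for Clic6 and Kcnj13 only. All these comparisons share samples and are not independent, and the p-values measure the spread between these samples.

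The KD samples were then compared by library number, 18 to 23 (n = 6) against 1 to 4 (n = 4), with a term for genotype. The pattern of Ttr along these runs was known from earlier results of these data. The counts and p-values of this split are therefore a description and no independent support. Of the 10 genes, 9 were higher in libraries 18 to 23 by edgeR, where 9.93% of the 17060 genes tested were called higher and 8.91% lower. The median log2 fold change was 5.65 against 0.02 over all genes. Kcnj13 missed the threshold (log2 fold change 4.38, standard error 1.49, adjusted p = 0.0556, edgeR), with 1.42 CPM in Slc11a2 KD WT 0001. The count was 3 of 10 without Slc11a2 KD APP/PS1 0004, which is the 1 sample of its genotype in libraries 1 to 4, where 0.544% of all genes were higher. It was 3 of 10 without Slc11a2 KD WT 0022 (0.262% of all genes) and 5 of 10 without Slc11a2 KD WT 0019 (9.47% of all genes). In WT samples alone it was 5 of the 9 members tested (3.57% of all genes).

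Ttr, Folr1, Aqp1 and Otx2 did not overlap between the 2 runs of libraries, and 7.98% of all genes tested were higher in each sample in this way. Folr1 was 2.11, 10.6 and 28.2 CPM (lowest, median and highest) in libraries 18 to 23 and 0, 0, 0.330 and 0.393 CPM in libraries 2, 3, 1 and 4, with a log2 difference of 6.01, a standard error of 0.97 and an adjusted p of 0.0082 by edgeR. Aqp1 had 0 counts in each of libraries 1 to 4 and 0.356, 3.90 and 14.7 CPM in libraries 18 to 23, where its mean was at least 288-fold higher (adjusted p = 0.00551, edgeR). Otx2 was 0.414 to 5.54 CPM in libraries 18 to 23 and reached 0.261 CPM in libraries 1 to 4, in Slc11a2 KD WT 0002. Kl was 1.88, 9.26 and 32.0 CPM in libraries 18 to 23 and 0, 0, 0 and 2.01 CPM in libraries 1 to 4, overlapping through Slc11a2 KD WT 0001 (log2 difference 5.56, standard error 1.30, adjusted p = 0.0138, edgeR). Clic6 was 0, 3.27 and 11.5 CPM against at most 0.165 CPM, overlapping through Slc11a2 KD APP/PS1 0021 and Slc11a2 KD WT 0001 (log2 difference 7.38, standard error 1.46, adjusted p = 0.00953, edgeR). Enpp2 was 16.8, 81.4 and 256 CPM against 1.65, 9.95, 10.0 and 17.6 CPM, and overlapped only through Slc11a2 KD WT 0001. Car14 and Atp1b1 had the smallest changes, with a log2 difference of 2.47 for Car14 (standard error 0.64 and adjusted p = 0.0198, edgeR) and of 2.39 for Atp1b1 (standard error 0.54 and adjusted p = 0.0125, edgeR).

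**Figure D5:**
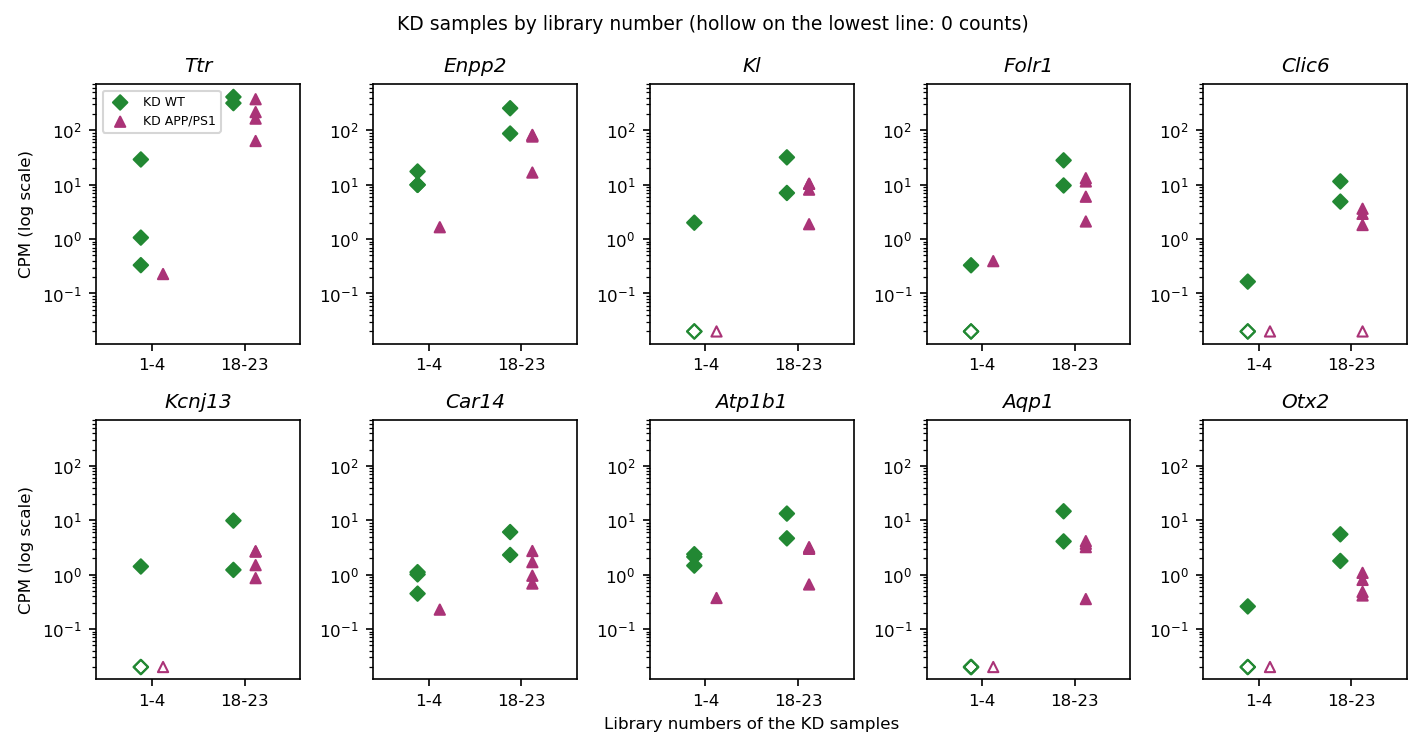
CPM (log scale) of each gene in the KD samples with library numbers 1 to 4 and 18 to 23, with Slc11a2 KD WT as diamonds and Slc11a2 KD APP/PS1 as triangles. Hollow symbols on the lowest line had 0 counts. Ttr, Folr1, Aqp1 and Otx2 do not overlap between the 2 runs, and Aqp1 had 0 counts in all 4 samples of libraries 1 to 4.

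A list of 45 other genes of choroid plexus epithelium was read beside the members. It was chosen with earlier results of these data known, so its counts are no independent support. In Control APP/PS1 against Control WT 22 of the 45 fell and 0 rose, where 4.48% of all genes tested fell, with a median log2 fold change of -4.92 and 4 positive estimates among those that did not pass. The 4 with the largest fitted change, Sostdc1 (an antagonist of bone morphogenetic protein signalling), Htr2c (the serotonin 2C receptor), Kcne2 (a potassium channel subunit) and Cldn2 (a tight junction claudin), had 0 counts in Control APP/PS1. Their means in Control WT were 6.12, 5.50, 5.25 and 3.63 CPM, at least 572-fold, 514-fold, 490-fold and 339-fold higher. These means rest on 0012 and 0015, since all 4 genes had 0 counts in the other 4 Control WT samples. Without 0012 and 0015, 0 of the 44 tested fell and 1 rose (Perp), an alternative added after the data were seen. For KD in APP/PS1 and in WT 0 of the 45 passed, where 0% of all genes did. In Slc11a2 KD APP/PS1 against Slc11a2 KD WT 1 of the 45 passed, where 9.77% of all genes were higher and 6.41% lower. It was Perp, which was higher (log2 fold change 2.08, standard error 0.44, adjusted p = 0.00231, edgeR). In KD libraries 18 to 23, 26 of the 43 tested were higher and 0 lower, where 9.93% of all genes were higher and 8.91% lower, with a median log2 fold change of 4.13 with genes at 0 counts taken at their bound (4.76 as fitted). In fits added after the data were seen, the count was 9 of 42 without Slc11a2 KD APP/PS1 0004 (0.544% of all genes higher), 8 of 42 without Slc11a2 KD WT 0022 (0.262%) and 19 of 43 without Slc11a2 KD WT 0019 (9.47%), where 1 was lower (Slc12a2, a sodium, potassium and chloride cotransporter). Prlr (the prolactin receptor), Cox8b, Slc4a5 and Steap1 had 0 counts in libraries 1 to 4 and mean levels of 2.29, 1.81, 1.69 and 1.59 CPM in libraries 18 to 23.

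The 12 genes outside the members whose log2 CPM followed Ttr most closely over the 22 samples were Sostdc1 (Pearson r = 0.970), Htr2c (0.946), Kcne2 (0.911), Prlr (0.8996), Slc2a12 (0.894), Steap1 (0.893), Atp2b3 (0.885), Car12 (0.885), Vat1l (0.882), Cyb561 (0.876), Ecrg4 (0.873) and Cldn2 (0.868). They were taken from 11878 genes with a mean of at least 1 CPM, and 10 of the 12 are on the list of 45 other choroid plexus epithelial genes. That list was chosen with earlier results of these data known, so the overlap is no independent support. The members themselves had an r with Ttr of 0.953 (Kcnj13), 0.939 (Enpp2 and Kl), 0.894 (Clic6), 0.887 (Otx2), 0.865 (Folr1) and 0.840 (Aqp1), and of 0.724 for Car14 and 0.719 for Atp1b1. These values describe the same libraries, which share depth and scaling, and many points are at or near 0 counts.

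Markers of other cells were read beside the comparisons. Stroma of the choroid plexus and meninges (8 genes) summed to 0.755 to 8.55 CPM in the 9 samples with Ttr, and 0 of the 8 passed in Control APP/PS1 against Control WT. Of 7 ependymal genes 0 passed in any comparison, with summed levels of 2.83 to 10.8 CPM in the 9 samples. In Control APP/PS1, where 4.48% of all genes tested fell and 5.99% rose, some genes of other lists fell too: 7 of 9 genes of border macrophages (summed level 103 to 223 CPM against 237 to 480 CPM in Control WT), 5 of 7 endothelial genes, while 1 rose (113 to 160 against 184 to 421 CPM), 2 of 6 mural and 3 of 7 neuronal genes, 4 of 7 oligodendrocyte genes (362 to 968 against 731 to 2781 CPM) and 4 of 9 tested microglial genes. Of 7 astrocyte genes 1 passed, Gfap, which rose (log2 fold change 3.90, adjusted p = 2.1e-07, edgeR). Control WT 0012 and 0015 had the highest summed levels of the 6 Control WT samples for the mural (85.9 and 120.02 CPM), oligodendrocyte (2032 and 2781 CPM) and ependymal (10.1 and 10.8 CPM) lists. They had the lowest for the microglial list (39417 and 37642 CPM), and 0015 had the lowest for astrocytes (125 CPM) and border macrophages (237 CPM). For endothelium Control WT 0006 (318 CPM) lay above 0012 (314 CPM). Between KD libraries 18 to 23 and 1 to 4, the summed level of the 10 choroid plexus genes did not overlap (87.6 to 791 against 2.87 to 53.5 CPM). The summed level of the 45 other choroid plexus genes, which include genes that sorted cells also express, did overlap (224.7 to 565 against 296 to 346 CPM), and the summed levels of the stromal, ependymal, endothelial, mural, astrocyte, oligodendrocyte, neuronal, microglial, border macrophage, red blood cell and lymphocyte lists did overlap. The part of these cells in the levels of the choroid plexus genes was not tested.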

How the data were processed

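Bulk poly(A) RNA-seq of hippocampal CD11b-positive cells was analysed in 23 samples, grouped by the labels. The authors trimmed reads with Trim Galore 0.6.7 and Cutadapt, aligned them to mm39 with STAR and deposited counts per gene from STAR's gene count mode, not normalized; whether counting used strand is not given in the sources used here. A deposited table of normalized values was not used. Here, a gene was tested if 3 or more samples had 5 or more counts of it, with edgeR 4.0.16 (TMM, quasi-likelihood, two-sided, 4 groups in 1 fit, 22 samples without Control APP/PS1 0010), adjusted by Benjamini-Hochberg over 18759 genes, with a threshold of 0.05. KD samples by library number had a fit of their own with a genotype term. Levels are CPM scaled by TMM over 23 samples, and ratios are of counts where Ttr had at least 10 CPM. DESeq2 1.42.0, limma 3.58.1, other filters, scalings and samples left out were alternatives. The edgeR fit was also run on simulated data, as a check of the code only, which bears on none of the results above. Positions and exon lengths are those of GENCODE M39 (GRCm39), where all 10 members were found. All 10 members are named in each comparison, with Slc11a2, of the list of other choroid plexus genes the 4 with the largest change past the threshold (or all, where fewer passed), and the 12 genes most like Ttr. The members, the lists and the split of KD samples by library number were chosen with earlier results of these data known.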

Additional observations from a re-analysis of the deposited data

Results flagged for a closer look

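Of 38 sets of a gene and a group with differing levels, 8 had a sample set apart from the rest by Dixon's criterion. Its chance rate of about 1 of 20 sets is for normally distributed values. These levels are skewed and many are at 0 counts, so that rate does not apply and no excess over chance is read from the count. These sets share samples and are not independent. In 2 of the 8 every other sample had 0 counts, so that any count at all would have met the criterion, and 6 of the 36 sets other than these had a sample apart. In Slc11a2 KD WT, library 0019 stood apart for Kl (32.0 CPM, the next sample at 7.07), Kcnj13 (9.89 CPM, the next at 1.42), Atp1b1 (13.3 CPM, the next at 4.67) and Aqp1 (14.7 CPM, the next at 4.10). In Control WT, library 0012 stood apart for Car14 at 7.91 CPM, with the next sample at 2.61. Among the 6 Control APP/PS1 samples tested, library 0013 stood apart for Enpp2 (3.62 CPM, the next at 1.68), Kl (0.0933 CPM, 4 counts) and Otx2 (0.0233 CPM, 1 count), with 0 counts of the last 2 genes in the other 5. Control APP/PS1 0010, not among the 6, had more Kl (10 counts, 0.288 CPM). What sets these libraries apart was not tested.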

How the results depend on the processing

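In Control APP/PS1 against Control WT, the 8 members called lower became 9 with DESeq2 (8.06% of all genes lower) and with Control APP/PS1 0010 kept (4.69%), 10 with a term for libraries 18 to 23 (6.16%), 6 (of 7 tested) in a fit of the compared groups alone (7.28%), 2 (of 2 tested) where genes needed 10 counts in every sample (9.6%), 1 with limma voom (7.15%) and 0 (2.68%) without Control WT 0012 and 0015, where Ttr turned to 5.79, Otx2 to 1.17, Folr1 to 1.80 and Aqp1 to 5.70 on the log2 scale, none called. The term for libraries 18 to 23 does not vary between these groups and left their estimates nearly unchanged. Leaving out 1 sample at a time gave 6 to 8 (3.33% to 4.7% of all genes). For KD in APP/PS1, the 0 called became 2 with DESeq2 (9.81% higher), stayed at 0 with a term for libraries 18 to 23 (adjusted p 1.0 for all 10) and with 0010 kept (0.595), and ranged from 0 to 7 with 1 sample left out (0% to 7.34%). The interaction went from 0 to 2 with DESeq2 (0.0963%). In KD libraries 18 to 23, the 9 called became 10 with no gene filter (8.73% of all genes higher), 7 with no genotype term (12%) and 5 of 9 tested in WT samples alone (3.57%), and ranged from 3 to 10 with 1 sample left out (0.262% to 11.3%). The cause was not tested. The calls for KD in WT and for genotype under KD were 0 in every alternative run, but the estimates changed sign in 29 of 192 and 24 of 172 values, and with the term for libraries 18 to 23 their medians went from -0.81 to -4.85 and from -0.71 to -1.86. The median ratios to Ttr moved by less than their spread in all alternatives. No paired analysis was possible because no library number is shared between groups. At 1 to 3 counts, low members such as Otx2 are limited by depth.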
